A study of Homo sapiens with 6 samples.

Results

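Expression in the second of 2 experiments was compared with that in the first, on all 6 arrays of the series, 3 per experiment. The cells were Hs578T, an established human breast cancer line of mesenchymal character, carrying a HOXA5 gene that can be induced. HOXA5 belongs to the homeobox family of transcription factors, and its targets are the question in the title of the series. Each experiment gave 1 array before induction (0 h), 1 after 6 h and 1 after 9 h of induction, and the arrays were taken as experiment 1 or 2 from the E1 or E2 in their titles. The cells were seeded 24 h before induction. Per the labels, an experiment is a batch of RNA from this line; they do not say whether the line is 1 clone, what induced HOXA5, or whether the cells of the experiments were grown apart. For 1 array, the 6 h one of experiment 2, the lot line names experiment 1, against the title and the description. All 22215 probe sets other than the 68 Affymetrix controls, of 22283 in all, were compared. Of these, 18360 lay above a floor of 12.7 intensity units (3.67 on the log2 scale) on at least 2 arrays and were tested, and 3855 did not. The tested probe sets named 10444 genes, each taken by its probe set of highest mean level.

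Both experiments hold uninduced cells at 0 h and induced cells at 6 h and 9 h, so arrays were compared between experiments at matched times. The degree of induction was not analysed here, and at 6 h and 9 h an unequal induction and other differences between the RNA batches cannot be told apart. Mesenchymal cells such as fibroblasts, and tumour lines that resemble them, secrete an extracellular matrix of fibrillar collagens, glycoproteins and proteoglycans. These proteins fold in the endoplasmic reticulum (ER), where chaperones and disulfide isomerases assist them, and an ER under load raises those genes through the unfolded protein response. Immediate-early genes, in contrast, rise within minutes to hours of serum, stress or a change of medium.

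In experiment 2, POSTN, FABP4, EFEMP1, CCL2 and C1S had the largest falls and ZNF335, TNC, ARC, IL1RL1 and AOX1 the largest rises. In a list of collagens and matrix proteins 10 of 43 tested genes fell and 2 rose, and in a list of ER chaperones 6 of 27 fell and 0 rose. Throughout, a difference is experiment 2 minus experiment 1 on the log2 scale of normalised intensity, ± is its standard error in limma's fit with time as a term (n = 3 arrays per experiment), and a gene is said to rise or fall where limma's Benjamini-Hochberg adjusted p lay under 0.05. By this rule 455 of 18360 probe sets (2.48%) differed, 163 higher (0.888%) and 292 lower (1.59%). Under scaling by the array median the counts were 59 higher and 179 lower, so that the share of higher calls was 24.8% in place of 35.8%. Among genes, 268 of 10444 (2.57%) differed, 105 higher (1.01%) and 163 lower (1.56%). A difference of at least 2-fold at all 3 times was found for 88 probe sets higher (0.479%) and 219 lower (1.19%), or 49 genes higher (0.469%) and 120 lower (1.15%). All 3 arrays of experiment 2 lay above all 3 of experiment 1 in 1800 probe sets (9.8%) and below them in 1709 (9.31%), or in 1106 (10.6%) and 981 (9.39%) of genes. The adjusted p measures how even the difference was over the 3 times of these RNA batches, which may be technical, and not how often it would return in other batches. It rests on 2 residual degrees of freedom: 0 probe sets passed without the 0 h arrays, 0 without the 6 h arrays and 8 without the 9 h arrays (3349, 2209 and 1997 with an unadjusted p under 0.05 in limma), against 3592 (19.6%) unadjusted with all arrays.

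**Figure D1:**
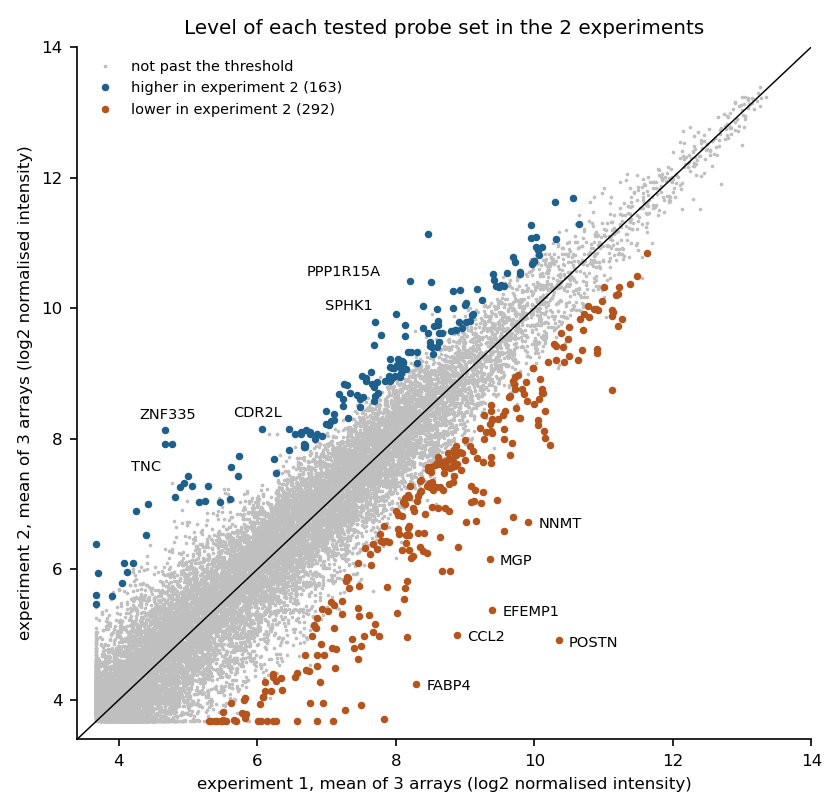
Mean level of each of 18360 tested probe sets over the 3 arrays of experiment 1 (x axis) and of experiment 2 (y axis), both in log2 normalised intensity, with the line of equal levels. The 163 probe sets past the threshold and higher are blue and the 292 lower are orange; POSTN, with a log2 difference of -5.44, lies farthest below the line.

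The arrays differed between experiments in more than the named genes. The median deposited intensity ran from 18.7 to 95.7 in experiment 1 and from 39 to 49 in experiment 2, and before scaling the median log2 difference was -0.83 at 0 h, 0.87 at 6 h and -0.25 at 9 h; all values here are relative to the array. All 9 ribosomal RNA control probe sets lay lower in experiment 2 at all 3 times, with log2 differences relative to the array median of -3.50, -3.29 and -3.28. The cre spike-in controls differed by -0.57, -2.52 and -1.78 at 0, 6 and 9 h. The other spike-ins hardly differed at 0 h or lay higher in experiment 2. For bioB the differences were 0.31, -2.18 and -1.44, for bioC -0.03, -1.83 and -1.47, and for bioD -0.05, -2.07 and -1.73. The ratio of 3' to 5' signal, a sign of RNA quality, lay between 0.863 and 1.31 for GAPDH and between 0.918 and 1.82 for ACTB, with the highest of each on the 9 h array of experiment 1. The part of these controls in the results below was not tested. HOXA5 is named by 0 probe sets of the probe table, and its level is not used here as a check of the labels.

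The experiment accounted for 32.8% of the total sum of squares over the tested probe sets (1 degree of freedom), time for 40.2% (2 degrees of freedom) and the remainder for 27% (2 degrees of freedom). Per degree of freedom, experiment stood at 1.63 times time, but at 0.42 times without scaling between arrays and at 1.05 times without the 6 h arrays. The median absolute log2 difference between the experiments was 0.348 at 0 h, 0.494 at 6 h and 0.479 at 9 h, and 10.9%, 21.6% and 18.6% of probe sets differed at least 2-fold. The induced arrays of experiment 2 were the most alike of all 15 pairs of arrays, with a Pearson correlation across probe sets of 0.948 and a median absolute difference of 0.325. The uninduced arrays of the 2 experiments correlated at 0.944, the 6 h arrays at 0.901 and the 9 h arrays at 0.914. These correlations run across probe sets, which are not independent replicates. The 6 h array with the deviating lot line thus lay nearer to the 9 h array of experiment 2 than to either the 6 h array or the 9 h array of experiment 1 (0.896 with the latter). With the lot line in place of the title, 0 probe sets passed and 1311 had an unadjusted p under 0.05 in limma. That label puts both 6 h arrays in experiment 1, so the fitted difference then comes from 0 h and 9 h alone. The count therefore cannot decide between the title and the lot line.

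Several of the largest falls were of matrix genes. POSTN (probe set 210809_s_at), which encodes periostin, a secreted protein that links collagen and integrins, read 1315, 935 and 1809 intensity units at 0, 6 and 9 h in experiment 1 and 34.9, 27.2 and 28.8 in experiment 2. Every array of experiment 2 lay far under every array of experiment 1. The fold was 43.3, a log2 difference of -5.44 ± 0.24 (adjusted p = 2.78e-05), the smallest adjusted p of all probe sets. EFEMP1 (201842_s_at), the matrix glycoprotein fibulin-3, read 1358, 233 and 947 against 51.3, 43 and 32.6, a log2 difference of -4.01 ± 0.42 (adjusted p = 0.00268), and -4.79 without the 6 h arrays. COL3A1 (201852_x_at), a fibrillar collagen, read 463, 201 and 249 against 25.2, 51.3 and 23.4, a log2 difference of -3.19 ± 0.41 (adjusted p = 0.00609), and -3.80 without the 6 h arrays. Its 3 tested probe sets had the same sign. MGP (202291_s_at), the matrix Gla protein that inhibits calcification, read 545, 683 and 754 against 112, 55.4 and 59.1, a log2 difference of -3.19 ± 0.29 (adjusted p = 0.00131). The groups did not overlap in any of these 4 genes.

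The matrix list was not moved as a block. Of its 49 genes 43 were tested, with a median log2 difference of -0.37 (0.05 over all tested genes). The median was -0.60 at 0 h, -0.29 at 6 h and -0.34 at 9 h. In all, 10 members fell and 2 rose, against 1.56% and 1.01% of all genes, while 31 did not pass. At all 3 times 18 members lay lower and 7 higher, against 18.1% and 22.3% of all genes. The falls held 5 collagen chains. Besides COL3A1, COL5A2, which joins type I fibrils, differed by -2.05 ± 0.21 (adjusted p = 0.00241), and COL1A2, a chain of type I collagen, by -1.04 ± 0.16 (adjusted p = 0.0123), with 2301, 1637 and 1243 units against 940, 876 and 650. COL6A1, a chain of the microfibrillar type VI collagen, differed by -1.30 ± 0.18 (adjusted p = 0.00874), 4 of its 6 probe sets pointing down, and COL13A1, a transmembrane collagen, by -0.94 ± 0.20. SPARC, a collagen-binding matricellular protein, fell from 1779, 1584 and 1597 to 804, 706 and 504 units (log2 difference -1.33 ± 0.17, adjusted p = 0.00554). The adhesive glycoprotein THBS1 and the protease inhibitor SERPINE2 fell as well, by 1.36 and 1.02 on the log2 scale.

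Other structural members stood apart from these. COL1A1, the partner chain of COL1A2, had a log2 difference of 0.59 ± 0.26 (adjusted p = 0.246), 2 of its 4 probe sets sharing that sign. FN1, fibronectin, read 3365, 3154 and 3553 against 2722, 2935 and 3267 units, a log2 difference of -0.18 ± 0.14 (adjusted p = 0.533). TNC (201645_at), tenascin C, a glycoprotein of remodelling matrix, rose from 12.7 (at the floor), 51.8 and 31.1 to 184, 216 and 361 units. All arrays of experiment 2 lay above all of experiment 1, a log2 difference of 3.15 ± 0.39 (adjusted p = 0.00547). LOX, the oxidase that cross-links collagen and elastin, was the other rise, with 759, 749 and 645 against 1277, 1418 and 1181 units (log2 difference 0.85 ± 0.15, adjusted p = 0.0234). COL5A2, COL1A2, COL13A1, THBS1, SERPINE2 and LOX were named after their values were seen. Of 17 tested luminal markers KRT18 and SPDEF fell as well (1.56% of all genes did), though the median of that list was 0.06. Summed mesenchymal markers overlapped between experiments. The part of these markers in the matrix result was not tested.

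**Figure D2:**
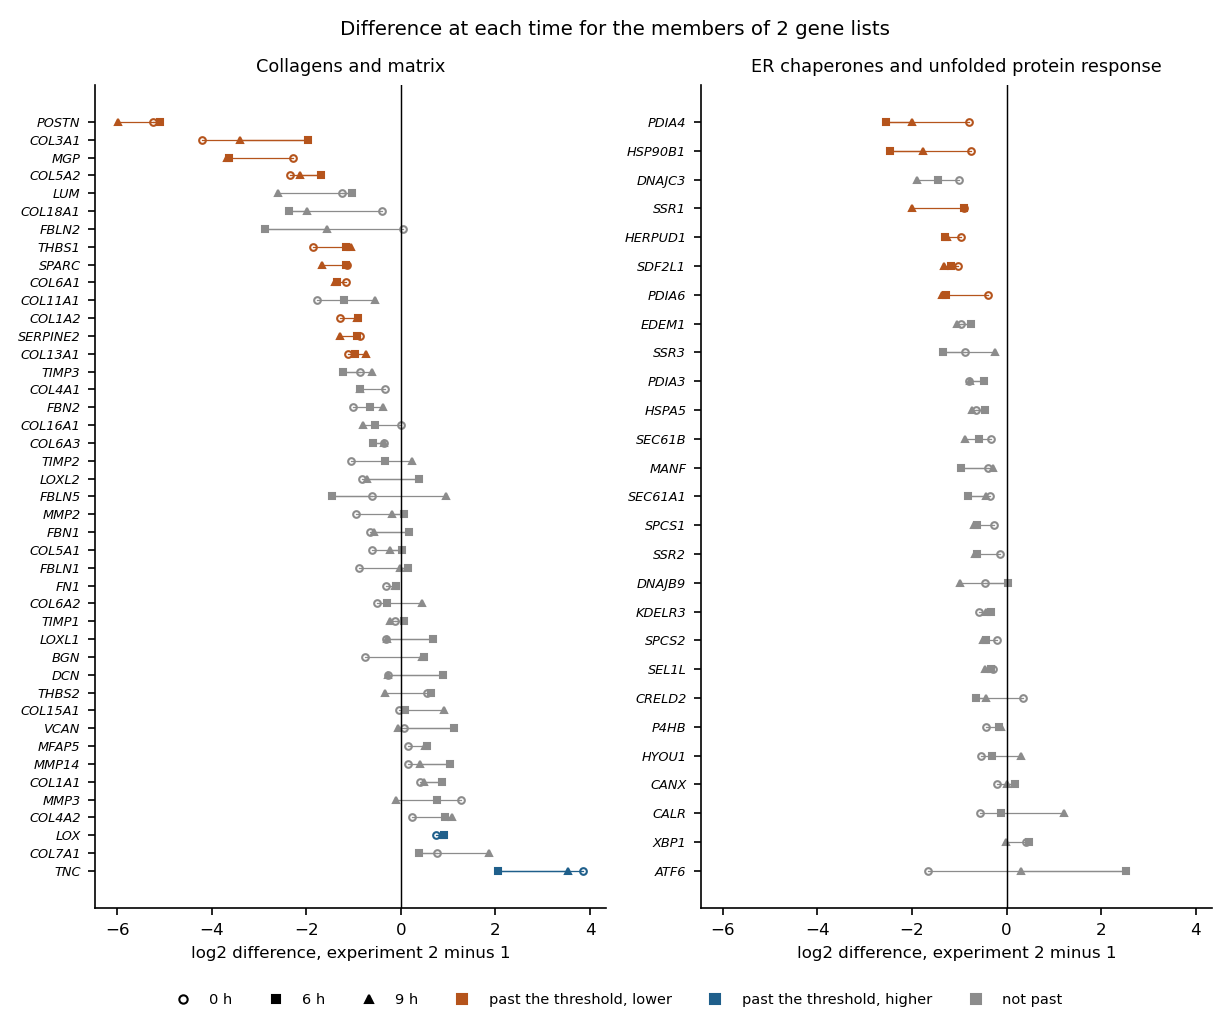
Log2 difference (experiment 2 minus experiment 1, x axis) at 0 h (circles), 6 h (squares) and 9 h (triangles) for the 43 tested matrix genes and the 27 tested ER genes, with a line spanning the 3 times. Orange marks genes past the threshold and lower (10 and 6), blue those higher (2 and 0), and grey those not past it; POSTN and TNC lie at the ends of the matrix panel.

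Genes of secretion were lower across most of the ER list as well. Of its 31 genes 27 were tested, and 20 of these lay lower in experiment 2 at all 3 times and 0 higher, against 18.1% and 22.3% of all genes; without scaling 7 lay lower at all 3 times. The median log2 difference was -0.54 (-0.54, -0.62 and -0.66 at 0, 6 and 9 h). In all, 6 members fell (1.56% of all genes did), 0 rose and 21 did not pass. With no replicate block, that is without time as a term, 1 member of this list fell and 6 of the matrix list.

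The members that fell were folding enzymes and parts of the translocation and degradation machinery. PDIA4 (211048_s_at), a protein disulfide isomerase, read 471, 522 and 301 against 272, 89.4 and 75.4 units, a log2 difference of -1.78 ± 0.31 (adjusted p = 0.0230). HSP90B1 (216449_x_at), the ER member of the HSP90 family, read 558, 763 and 696 against 331, 138 and 205, a log2 difference of -1.66 ± 0.29 (adjusted p = 0.0219). In both genes the groups did not overlap, and the difference was smallest at 0 h, at -0.79 and -0.76, against -2.55 and -2.47 at 6 h. SSR1, a subunit of the translocon-associated complex, differed by -1.27 ± 0.23 (adjusted p = 0.0255), with 964, 579 and 1107 against 515, 308 and 278 units. HERPUD1, which serves ER-associated degradation, and SDF2L1, a partner of ER chaperones, both differed by -1.17, and the disulfide isomerase PDIA6 by -1.01. These last 3 genes were named after their values were seen. HSPA5, the main ER chaperone BiP, read 1973, 1071 and 1172 against 1270, 777 and 706 units, a log2 difference of -0.61 ± 0.15 (adjusted p = 0.0662), and its groups overlapped. XBP1, a transcription factor of the unfolded protein response, had a log2 difference of 0.30 ± 0.17 (adjusted p = 0.381).

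Promoters of ER stress genes can carry an ER stress response element, at which the factors ATF6, NF-Y and XBP1 are known to act, in a long form (CCAAT, 9 bases of any kind, CCACG) and a short form (ATTGG, 1 base of any kind, CCACG). Both strands of RefSeq promoters of GRCh38.p14 were searched, from 250 bases before to 50 after each gene start. The long form was in 27 of 35116 promoters (0.0769%) and the short form in 19 (0.0541%). Of the 27 tested ER genes 25 had a promoter entry, and 10 held either form (7 the long one, 3 the short one). Of those 10 genes, 4 fell and 5 were lower at all 3 times. In the whole list 6 of 27 tested genes fell and 20 were lower at all 3 times, against 1.56% and 18.1% of all genes. CALR, CANX, CRELD2, HSPA5, XBP1 and HYOU1 held a form and did not pass. Whether either form goes with the fall was not tested. The windows of the 4 holders that fell are shown 5' to 3' on the gene's strand, with that of XBP1 for the long form. Capitals mark the element, which lies on the opposite strand in SDF2L1.
HSP90B1, chr12:103930186-103930264 (+): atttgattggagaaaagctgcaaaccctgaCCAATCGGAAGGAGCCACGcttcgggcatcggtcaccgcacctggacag
PDIA6, chr2:10812823-10812901 (-): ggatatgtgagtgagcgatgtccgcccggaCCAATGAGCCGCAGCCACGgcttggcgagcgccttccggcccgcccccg
HERPUD1, chr16:56931995-56932065 (+): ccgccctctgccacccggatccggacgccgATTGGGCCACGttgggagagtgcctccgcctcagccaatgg
SDF2L1, chr22:21642084-21642154 (+): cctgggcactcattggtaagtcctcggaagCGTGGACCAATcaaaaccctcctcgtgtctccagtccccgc
XBP1, chr22:28800573-28800651 (-): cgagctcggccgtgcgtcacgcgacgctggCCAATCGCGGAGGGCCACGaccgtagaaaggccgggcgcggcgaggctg
HSP90B1 holds a further long form on the opposite strand, nearer to its start. PDIA4, the largest fall of the list, holds neither form in this window. A match is a description of letters and not a site that was shown to be used.

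The remaining large falls were of several kinds. FABP4 (203980_at), a fatty acid carrier best known from fat cells, read 711, 142 and 304 against 26.8, 19.1 and 13.3 units, a log2 difference of -4.05 ± 0.41 (adjusted p = 0.00222). NNMT (202237_at), which methylates nicotinamide, read 1007, 558 and 1590 against 106, 99.0 and 112, a log2 difference of -3.19 ± 0.25 (adjusted p = 0.00075). MEST (202016_at), an imprinted gene, read 1771, 496 and 651 against 181, 118 and 66.1, a log2 difference of -2.89 ± 0.26 (adjusted p = 0.00131). The arrays of the experiments did not overlap in any of them. C1S (208747_s_at), a protease of the complement cascade, read 150, 95.3 and 180 in experiment 1 and was at the floor on all 3 arrays of experiment 2, so that it was at least 10.8-fold lower against the floor. SLC2A3, a glucose transporter, CREB3L1, an ER-bound transcription factor that acts on collagen genes, TNS3, a protein of focal adhesions, CEMIP, which takes part in hyaluronan breakdown, the transcription factor CEBPD and TNFRSF11B, the decoy receptor osteoprotegerin, differed by -2.81 to -3.42. CREB3L1 had 1 of its 2 probe sets falling. Of these 6 genes, several moved by over 1.5 times in fold without a pair of arrays: CREB3L1 to -2.63 without 0 h and -4.04 without 9 h, TNS3 to -2.27 without 0 h, CEMIP to -1.87 without 0 h and -3.52 without 6 h, and CEBPD to -3.72 without 6 h and -1.95 without 9 h.

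The 3 falls of the NF-kB and cytokine list were all chemokines. CCL2 (216598_s_at), which attracts monocytes, read 284, 303 and 1215 against 12.7 (at the floor), 56.4 and 45 units, a log2 difference of -3.89 ± 0.42 (adjusted p = 0.00299), and -4.62 without the 6 h arrays. CXCL8, interleukin-8, read 70.5, 1086 and 2452 against 44.3, 130 and 210, so that the difference was -0.67 at 0 h, -3.06 at 6 h and -3.54 at 9 h (fitted -2.42 ± 0.45, adjusted p = 0.0277, and -3.30 without the 0 h arrays). CXCL8 read higher at 6 h and 9 h than at 0 h in both experiments, and whether that change differed between them was not tested. CXCL2, a neutrophil chemokine, differed by -2.33 ± 0.49 (adjusted p = 0.0439), and by -1.59 without the 9 h arrays. Other members of that list went the other way or did not pass. NFKB2, a subunit of NF-kB, rose by 1.43 ± 0.30 (adjusted p = 0.0438) with overlapping groups, and was named after its value was seen. NFKBIA, the inhibitor that NF-kB induces, differed by 2.08 at 0 h and -0.66 at 9 h (fitted 0.69 ± 0.41, adjusted p = 0.396). Of 28 tested members of 35, 3 fell and 1 rose, against 1.56% and 1.01% of all genes, with a median of -0.06.

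**Figure D3:**
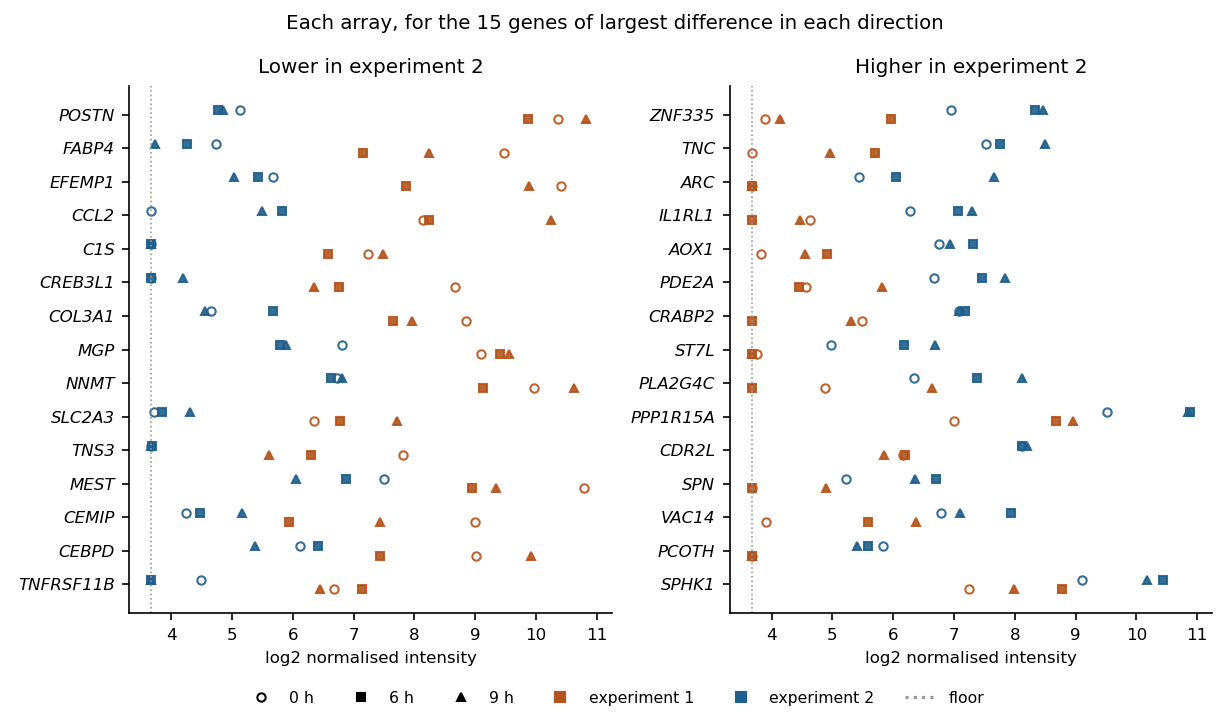
Log2 normalised intensity (x axis) on each array for the 15 genes of largest fall (left) and of largest rise (right) past the threshold, with circles at 0 h, squares at 6 h and triangles at 9 h. Experiment 1 is orange and experiment 2 blue, and the dotted line is the floor at 3.67; in all but PLA2G4C the 3 arrays of one experiment lie clear of those of the other.

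The largest rises were more mixed in function. ZNF335 (221890_at), a zinc finger protein, read 14.8, 62.5 and 17.6 against 123, 324 and 353 units, a log2 difference of 3.25 ± 0.40 (adjusted p = 0.00540). ARC (210090_at), an immediate-early gene known from neurons, was at the floor on all 3 arrays of experiment 1 and read 43.5, 65.9 and 203 in experiment 2, at least 6.56-fold higher against the floor (adjusted p = 0.0234). Without the 9 h arrays its fitted log2 difference was 2.07 in place of 2.71. PPP1R15A (37028_at), the GADD34 subunit that directs a phosphatase to the initiation factor eIF2, read 127, 411 and 496 against 734, 1892 and 1857. It rose evenly over time, by 2.53, 2.20 and 1.90 at 0, 6 and 9 h (2.21 ± 0.18, adjusted p = 0.00075). SPHK1 (219257_s_at), a sphingosine kinase, read 152, 438 and 254 against 548, 1393 and 1155, a log2 difference of 1.90 ± 0.18 (adjusted p = 0.00148). CDR2L (213230_at) read 71.4, 73.1 and 57.8 against 278, 277 and 295, a log2 difference of 2.08 ± 0.25 (adjusted p = 0.00444), with levels that hardly differed between times in either experiment.

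Levels near the floor carried many of the other rises. IL1RL1, the receptor for interleukin-33, read 24.7, 12.7 and 22.1 against 77.8, 135 and 158 units (2.63 ± 0.43), and AOX1, an aldehyde oxidase, 14.2, 30.1 and 23.3 against 107, 159 and 123 (2.57 ± 0.36). CRABP2, a carrier of retinoic acid, read 44.8, 12.7 and 39.3 against 135, 145 and 136 (2.30 ± 0.43, and 1.69 without the 6 h arrays). PDE2A, a cyclic nucleotide phosphodiesterase, VAC14, a scaffold of lipid kinases, ST7L and the leukocyte surface protein SPN differed by 1.98 to 2.38, and 2 of the 4 probe sets of SPN were higher. VAC14 stood at 2.61 without the 9 h arrays. PCOTH was at the floor on all arrays of experiment 1 and was at least 3.83-fold higher against the floor. PLA2G4C, a phospholipase, passed at 2.22 ± 0.46 although its groups overlapped, with 29.4, 12.7 and 99.2 against 81.3, 166 and 278, and stood at 1.48 without the 6 h arrays.

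Immediate-early genes moved in both directions. Of 35 listed 32 were tested; 5 rose, against 1.01% of all genes, and 2 fell, against 1.56%, and the median was 0.02 (-0.02 under median scaling and -0.03 under cyclic loess). GEM (204472_at), a small GTPase, rose by 1.89 ± 0.17 (adjusted p = 0.00131), with 143, 449 and 760 against 598, 1788 and 2310 units. Its groups overlapped, as the later arrays read higher in both experiments, while the difference at matched times was 2.06, 1.99 and 1.60. ATF3, a stress-induced transcription factor, behaved alike, with 67.9, 187 and 483 against 224, 585 and 939 (1.44 ± 0.21, adjusted p = 0.0121). The AP-1 members FOSL1 and JUND and the transcription factor KLF4, named after their values were seen, rose by 0.94, 1.07 and 0.86. CCN1, a matricellular protein, fell by 1.46 ± 0.19 on the log2 scale (adjusted p = 0.00565), from 1311, 822 and 1131 to 506, 375 and 310 units. DUSP6, a phosphatase of MAP kinases, also named after its value was seen, fell by 1.36 ± 0.30. EGR1, an early growth response factor, had a difference of 0.88 ± 0.24 (adjusted p = 0.0825) that was 1.54 at 0 h, where it read 68 and 200 units. MAFF differed by 2.44 at 0 h and 0.23 at 9 h (1.39 ± 0.34, adjusted p = 0.0628).

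Of 39 tested growth factors, receptors and binding proteins 3 fell and 2 rose, against 1.56% and 1.01% of all genes. IGFBP3 (210095_s_at), which binds insulin-like growth factors, read 1270, 714 and 1632 against 283, 256 and 233 units, a log2 difference of -2.15 ± 0.24 (adjusted p = 0.00331). DKK1, a secreted inhibitor of WNT signalling, differed by -1.41 ± 0.17 (adjusted p = 0.00427), with 1449, 1029 and 915 against 634, 328 and 347. NRP1, a receptor for semaphorins and VEGF, was the other fall, at -1.23, and was named after its value was seen. HBEGF, a ligand of the EGF receptor, rose by 1.43 ± 0.17 (adjusted p = 0.00476), with 184, 361 and 335 against 430, 1112 and 919. PTN, pleiotrophin, a heparin-binding growth factor, read 132, 374 and 179 against 231, 1208 and 1188 (1.74 ± 0.31, adjusted p = 0.0234); its groups overlapped, and 2 of its 4 probe sets were higher. EGFR itself differed by -0.37 ± 0.24 (adjusted p = 0.437), with 2 of 5 probe sets of that sign.

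The list of NRF2, metal and oxidative stress genes lay lower at a median of -0.39, with 4 of 31 tested members falling and 0 rising, against 1.56% and 1.01% of all genes. AKR1C1 (204151_x_at) and AKR1C3 (209160_at), aldo-keto reductases of steroids and aldehydes, differed by -2.21 ± 0.26 (adjusted p = 0.00426) and -2.35 ± 0.28 (adjusted p = 0.00427). AKR1C1 read 689, 437 and 716 against 176, 135 and 92.1 units and AKR1C3 363, 167 and 392 against 71.4, 45.4 and 54.9. These genes are closely related paralogs, and probes of one may read another. Their separate levels are therefore uncertain, and they may not be separate counts among the 4. TFRC, the transferrin receptor, fell from 1734, 1946 and 2113 to 954, 461 and 666 (-1.54 ± 0.22, adjusted p = 0.0101). The fourth, TXNRD1, a thioredoxin reductase, differed by -0.93 and was named after its value was seen. The first members of the list, HMOX1 and MT2A, differed by -0.16 and -0.01 and did not pass.

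Of 28 tested genes of the contractile cytoskeleton 4 rose and 1 fell, against 1.01% and 1.56% of all genes. The median was 0.09 (-0.02 under median scaling). PDLIM7, a scaffold of actin filaments, read 154, 157 and 147 against 245, 658 and 596 units (1.59 ± 0.28, adjusted p = 0.0239). MYH9, the heavy chain of nonmuscle myosin IIA, rose by 1.12 ± 0.25 (adjusted p = 0.0493) and PFN1, profilin, by 1.13 ± 0.25 (adjusted p = 0.0490), both least at 0 h (0.36 and 0.52) and most at 9 h (1.82 and 1.99). MYH10, the heavy chain of nonmuscle myosin IIB, fell by 1.36 ± 0.24 on the log2 scale (adjusted p = 0.0234), 1 of its 2 probe sets falling. TPM4, a tropomyosin named after its value was seen, rose by 0.83. ACTA2, smooth muscle actin, had a difference of 0.00 ± 0.29.

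In the list of ATF4 and amino acid response genes 3 of 34 tested members rose and 1 fell, against 1.01% and 1.56% of all genes, with a median of 0.06 (-0.03 under median scaling). PPP1R15A was given above. DDIT3, the factor CHOP, read 160, 266 and 319 against 280, 534 and 833 units, with overlapping groups (1.07 ± 0.19, adjusted p = 0.0254), and SLC3A2, the shared heavy chain of amino acid transporters, rose by 1.07 ± 0.19 (adjusted p = 0.0239). SLC7A11, the cystine transporter that pairs with it, fell by 1.09 ± 0.21 on the log2 scale (adjusted p = 0.0312), with overlapping groups of 260, 520 and 625 against 131, 184 and 364. ASNS, asparagine synthetase, had a difference of -0.08 ± 0.23.

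Metabolic lists are given against the 1.56% of all genes that fell and the 1.01% that rose. In sterol and fatty acid synthesis, with a median of -0.41 over 23 genes, SCD, a fatty acid desaturase, was the 1 fall (-1.31 ± 0.21, adjusted p = 0.0160), from 701, 256 and 285 to 229, 119 and 122 units. In oxidative phosphorylation, with a median of -0.25 over 41 genes, 21 members lay lower at all 3 times and 6 higher, against 18.1% and 22.3% of all genes, and COX7C, a subunit of cytochrome c oxidase, was the 1 fall (-0.86 ± 0.16, adjusted p = 0.0283). NDUFA1, a subunit of respiratory complex I, read 1671, 1065 and 1211 against 1639, 288 and 343, so that it differed by -0.03 at 0 h and by -1.89 and -1.82 after induction (fitted -1.24 ± 0.32, adjusted p = 0.0721). Of 32 tested genes of glycolysis and hypoxia 2 fell and 1 rose. ADM, the vasodilator adrenomedullin, fell by 1.46 ± 0.24 on the log2 scale (adjusted p = 0.0178) and PLOD2, a lysyl hydroxylase of collagen, by 1.14 ± 0.17 (adjusted p = 0.0106). PFKP, a phosphofructokinase of glycolysis named after its value was seen, rose by 0.77 (adjusted p = 0.0403). The 28 tested TGF-beta and YAP targets had a median of -0.34, with 0 calls in either direction in limma; CCN2, a target of both pathways, read 648, 107 and 241 against 61.3, 92.4 and 66.4 units (-1.82 ± 0.49, adjusted p = 0.0799), with a difference of -1.03 without the 0 h arrays and -2.63 without the 6 h arrays.

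The 43 tested mitosis genes had a median log2 difference of 0.44 at 0 h, -0.43 at 6 h and 0.12 at 9 h, and -0.02 in the fit; the change between times was not tested, and 10 members were higher at all 3 times and 1 lower, against 22.3% and 18.1% of all genes. Separase (ESPL1) and the checkpoint protein BUB3 rose, by 1.15 ± 0.20 (adjusted p = 0.0218) and 0.71 ± 0.15 (adjusted p = 0.0462), and 0 members fell, against 1.01% and 1.56% of all genes. CCNB1, cyclin B1, read 642, 1114 and 790 against 796, 410 and 388 units (-0.72 ± 0.29, adjusted p = 0.211). Among replication genes CDC6, which loads the replicative helicase, rose evenly from 144, 206 and 178 to 343, 458 and 437 (1.23 ± 0.19, adjusted p = 0.0139). PCNA, the sliding clamp, differed by 0.63 at 0 h and by -2.54 and -1.57 at 6 h and 9 h (-1.16 ± 0.47, adjusted p = 0.215). Of the p53 list, PLK2, a polo-like kinase, fell from 364, 71.0 and 227 to 30.4, 18.9 and 40 units (-2.66 ± 0.39, adjusted p = 0.0109), with differences of -3.58, -1.91 and -2.50 at 0, 6 and 9 h. GADD45A, a growth arrest gene, rose by 1.00 ± 0.15 (adjusted p = 0.0123). The 42 tested cytosolic ribosomal protein genes had 0 calls in limma and a median of 0.03 (-0.28 under median scaling).

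**Figure D4:**
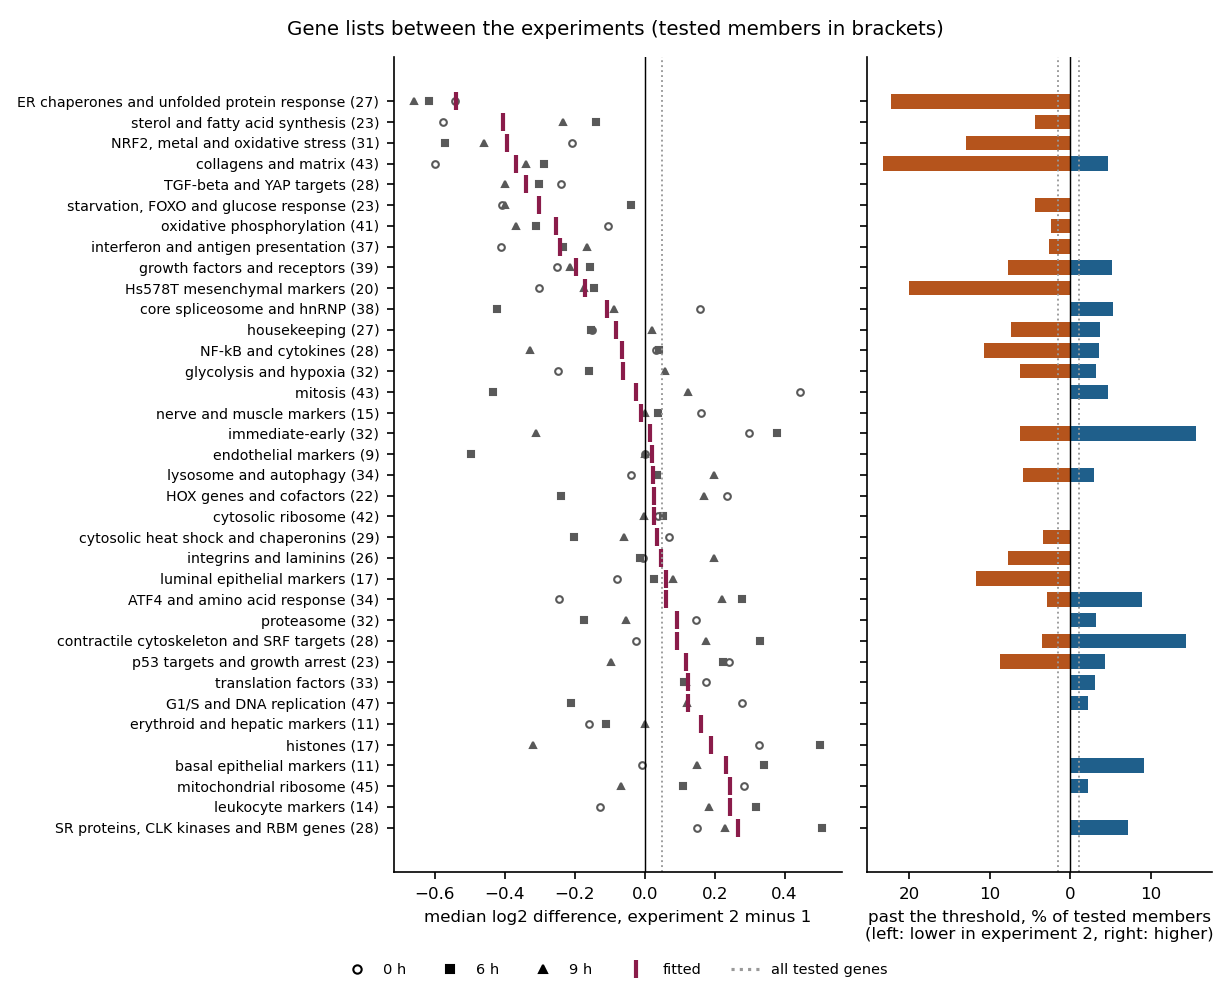
Median log2 difference (left, experiment 2 minus experiment 1) of each gene list with at least 5 tested members at 0 h (circles), 6 h (squares), 9 h (triangles) and in the fit (bars), and the percent of tested members past the threshold (right; lower to the left, higher to the right). Dotted lines give all tested genes; the ER list has the lowest fitted median, -0.54, and mitosis lies at 0.44, -0.43 and 0.12.

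Markers bore out the mesenchymal label on all 6 arrays. All 20 listed mesenchymal markers were tested and 18 lay above the floor on every array, with summed intensities of 34990 to 40356 in experiment 1 and 36141 to 40218 in experiment 2. VIM, vimentin, read 4772, 4282 and 4581 against 7670, 5972 and 6528 units (0.56 ± 0.14, adjusted p = 0.0715), and CAV1, caveolin-1, 2505, 1965 and 1746 against 1722, 1156 and 1064 (-0.67 ± 0.15, adjusted p = 0.0477). Of this list 4 of 20 members fell, CAV1, SPARC, COL6A1 and COL1A2, the last 3 of which are also matrix genes. No member rose, and 1.56% of all genes fell and 1.01% rose. At all 3 times 9 members lay lower and 4 higher, against 18.1% and 22.3% of all genes. Summed luminal epithelial markers lay between 3181 and 4787 in experiment 1 and between 2128 and 2403 in experiment 2. The largest part of each sum was KRT18, keratin 18, at 3510, 1908 and 1950 against 851, 781 and 929 (-1.47 ± 0.20, adjusted p = 0.00749). SPDEF, an epithelial transcription factor, fell too (-2.21 ± 0.40, adjusted p = 0.0239), 3 of its 5 probe sets falling. These were the 2 falls among 17 tested luminal markers, and 0 rose, against 1.56% and 1.01% of all genes. The list as a whole was not lower, with a median of 0.06. At all 3 times 4 members lay lower and 3 higher, against 18.1% and 22.3% of all genes. Of the 23 listed luminal markers 13 lay above the floor on all 6 arrays and 5 at the floor on all 6. The luminal genes EPCAM and KRT19 were at the floor on all 6 arrays and CDH1 on 3. GATA3 read 114 to 193 units and XBP1 417 to 738 over the 6 arrays. KRT8, the partner of keratin 18, read 35.4 to 76.7 units in experiment 1 and 51.6 to 56.6 in experiment 2.

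Marker sums of other cells overlapped between the experiments. They lay at 464 to 912 and 608 to 830 units for basal epithelial markers, at 563 to 616 and 545 to 716 for leukocyte, at 440 to 638 and 431 to 537 for endothelial, at 588 to 673 and 592 to 741 for nerve and muscle, and at 319 to 384 and 340 to 441 for erythroid and hepatic markers. Of the members on the array, 4 of 14 basal and 7 of 20 leukocyte markers lay above the floor on all 6 arrays. So did 4 of 14 endothelial, 5 of 20 nerve and muscle, and 1 of 16 erythroid and hepatic markers. Among them SFN read 164 to 524 units, CD53 69.9 to 173, ENG 169 to 308 and TNNT1 94.7 to 223. In contrast, KRT14 and CDH5 were at the floor on all 6 arrays, CD14 and GFAP on 5. S100A2, a calcium-binding protein of basal cells, was the 1 call among these lists (1.21 ± 0.26, adjusted p = 0.0463). In the order above they held 11, 14, 9, 15 and 11 tested members, and 1.01% of all genes rose and 1.56% fell. Nothing about these lists is read from 1 call. In bulk RNA, a change in the number of cells of a type and in RNA per cell cannot be told apart.

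Calls followed signal level. With the probe sets in 4 equal classes of mean level, 0.283%, 1.42%, 2.14% and 6.08% passed from the lowest class to the highest. Of probe sets designed for 1 transcript (suffix _at) 1.95% passed, and of those less specific by design, with the suffixes _s_at and _x_at, 2.94% and 3.36%. Gene length made little difference, with 2.72%, 2.64%, 2.72% and 2.18% from the shortest of 4 equal classes to the longest. Over chromosomes the median log2 difference ran from -0.065 to 0.060 at 0 h, from -0.108 to 0.196 at 6 h and from -0.138 to 0.212 at 9 h, and 1.31% to 4.30% of genes passed. Direction varied: on chromosome X 14 of 393 genes fell and 0 rose, against 1.56% and 1.01% of all genes. On chromosome 17, 9 of 598 genes rose and 3 fell, and on chromosome 19, 9 of 690 rose and 2 fell, against the same shares. These 3 chromosomes were picked after their values were seen, and the difference between chromosomes was not tested. Of the 121 genes past the threshold with several tested probe sets, 98 had all of them of the same sign. The same share over all 3535 genes with several tested probe sets is not given here, so the count is a description only.

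A small set of genes differed one way at 0 h and the other way at both induced times. FGF4, a fibroblast growth factor, read 103, 16.9 and 27.7 units in experiment 1 and 12.7 (at the floor), 61 and 93.3 in experiment 2, differences of -3.02, 1.86 and 1.75. MYL10, a myosin light chain, read 79.3, 19.2 and 12.7 against 22.8, 158 and 65.5. PTGFR, the prostaglandin F receptor, read 14.4, 59.8 and 71.3 against 36.6, 12.7 and 17.1. GPA33 and ZGPAT had differences of -2.09, 1.33 and 1.79 and of 1.57, -3.05 and -0.99. All 5 held at least 1 array at the floor, and none of them passed in the fit, where opposite differences cancel (adjusted p = 0.437 to 0.928).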

How the data were processed

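RNA of 6 Affymetrix arrays was compared. The values deposited by the authors are 1 linear intensity per probe set and array, not scaled between arrays; how they were computed is not given in the labels or files used here. Quantile normalisation was followed by a floor at the 25th percentile, a log2 transform and a filter to probe sets above the floor on at least 2 of 6 arrays. lmFit and eBayes with an intensity trend (limma 3.58.1, R 4.3.3) fitted time and experiment, since the titles give each experiment an array at each of the 3 times (the lot line of 1 array disagrees); p-values are two-sided and adjusted by Benjamini-Hochberg over 18360 probe sets, with a threshold of 0.05. The code was run on data simulated from the fit's own estimates with independent normal noise. Such a run checks the code and not the calls made here. A gene at the floor on all arrays of an experiment is given as a bound against the floor.

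Symbols were taken from a probe table of the platform with 20114 probe sets, 19071 of 1 symbol and 1043 of several, and 2169 had none; 19059 were read through Entrez numbers. Promoters came from RefSeq (GRCh38.p14).

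The members and the 37 gene lists (1244 genes) were chosen with earlier results of these data known. Named genes are the 15 largest differences per direction among genes past the threshold that kept 1 direction at all times, the first 2 members of each list and up to 4 of largest difference of the same direction at all times, and 5 genes of opposite sign at 0 h and both induced times; others are said to be named after their values were seen. Alternatives changed scaling, floor, filter, variance moderation, the time term, the experiment label and the arrays used. The number of arrays limits the precision.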

Additional observations from a re-analysis of the deposited data

Results flagged for a closer look

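In 3 genes the mean change of the induced arrays from 0 h went one way in experiment 1 and the other way in experiment 2, with every induced array on its side; the difference was not tested. For FGF4 the mean log2 change was -2.26 in experiment 1 and 2.57 in experiment 2. For MYL10 it was -2.34 and 2.16. For PTGFR it was 2.18 and -1.31. Among 10444 genes, 3 were at least 2-fold up at both induced times in experiment 1 and at least 2-fold down at both in experiment 2, and 7 showed the reverse. Each of these 3 genes was at the floor on 1 array.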

How the results depend on the processing

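The 83 named genes past the threshold kept their sign under each alternative that tested them; both filters to all 6 arrays tested 69 of them. Much of this was fixed in advance. Each of these genes had the same direction at every time, so leaving out a pair of arrays could not turn its sign. Dropping the time term or changing the filter or the variance moderation leaves the fitted difference as it was. With the lot line both 6 h arrays count as experiment 1, so the difference comes from 0 h and 9 h alone and could not turn its sign either. The kept sign is therefore no check under those alternatives. A change of scaling could have turned a sign, and did not. The medians of the matrix and ER lists stayed below 0, while the calls did not hold throughout. Against 455 probe sets (163 higher, 292 lower), median scaling gave 238 (59, 179), trimmed mean scaling 538, cyclic loess 381, and no scaling 6 (0, 6). A floor at the 10th percentile gave 314 (103 higher), at the 40th 700 (285 higher), and 16 added with no floor 914 (365, 549). No filter gave 0 (0, 0; 2899 with an unadjusted p under 0.05 in limma), and a filter above the floor on all 6 arrays 1061 (468, 593). Without the replicate block, that is with no time term, 98 passed (12, 86), with the lot line 0 (0, 0), with eBayes without trend 1 (0, 1), and with robust eBayes 639. Without trend but above the floor on all 6 arrays, chosen after seeing the data, 180 passed (45, 135). Leaving out a pair of arrays gave 0 to 8 (0 to 2 higher, 0 to 6 lower). The smallest adjusted p was then 0.0584, 0.0737 and 0.00767 without 0, 6 and 9 h. The cause of these shifts was not tested, except that fewer arrays leave 1 residual degree of freedom.

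Of 10 falls in the matrix list, 6 were left under median scaling, 1 without scaling, 0 with no filter, 6 without the block, 0 with the lot line, 1 without trend, 6 without trend on all 6 arrays, and 0 to 1 without a pair. Of 6 in the ER list, 0, 0, 1, 0, 0, 0 and 0 to 0 were left under no scaling, no filter, no block, the lot line, no trend, no trend on all 6 arrays, and without a pair. The ER median of -0.54 was -0.65 under median scaling, -0.69 without scaling and -0.63 to -0.46 without a pair, and 7 members lay lower at every time without scaling. The matrix median of -0.37 was -0.42 to -0.16 without a pair. Probe sets whose groups did not overlap numbered 3509, 412 without scaling and 6761 to 8434 without a pair. Those at least 2-fold higher at every time, 88 in all, were 38 without scaling, 154 and 55 with the floor at the 10th and 40th percentile, 44 with 16 added, 53 above the floor on all arrays and 215 to 419 without a pair; those lower, 219, were 103, 139 at the 40th percentile, 134, 142 and 346 to 662. The spread between experiments over that between times, 1.63, was 0.42 without scaling and 1.05 to 1.72 without a pair.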
